A study of Mus musculus with 11 samples.

Results

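Immunity-related GTPases (IRGs) are dynamin-like GTPases that interferons induce in mouse cells. The genes Irgm1, Irgm2, Igtp, Iigp1, Ifi47, Tgtp1 and Tgtp2 were chosen by name as members of this family. All 7 were found among the 52636 genes of the count tables, and all 7 passed the filter on low counts that left 17243 genes for testing. The study asked how embryos lacking caspase-8 and TNFR1 die, and counted mRNA in fetal livers taken at E15.5 without treatment. Livers of 4 genotypes were compared, namely 3 wild-type (WT), 2 Tnfr1-/-, 3 Casp8-/- Mlkl-/- and 3 Casp8-/- Tnfr1-/- livers. Casp8 was intact in WT and Tnfr1-/- livers, and both double knockouts lacked it. Mlkl, whose product executes necroptosis, was intact in every genotype except Casp8-/- Mlkl-/-. The labels name no litter and do not say that replicates are separate animals, so p-values measure the spread between these libraries. Genotypes are given as labelled throughout.

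The IRG family has a regulatory branch and an effector branch. Irgm1, Irgm2 and Igtp (also called Irgm3) are the GMS proteins, named for a methionine in the nucleotide-binding loop, and they sit on host membranes and keep the other branch inactive there. Iigp1 (Irga6), Ifi47 (Irgd) and Tgtp1 with Tgtp2 (both Irgb6) are GKS proteins, which load onto and disrupt vacuoles that hold parasites or bacteria. Interferon-gamma acts on genes through GAS elements, and type I interferon acts through the ISGF3 complex, which binds interferon-stimulated response elements (ISREs).

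RefSeq promoters of build GRCm38.p6 were taken to run from 250 bases before to 50 bases after a gene start. They were examined for 6 of the 7 members. No promoter of Iigp1 was examined, so nothing is said here about its sequence. An ISRE core was searched as GAAANNGAAA and a GAS core as TTCNNNGAA, on both strands. The ISRE core was present in 3.44% of the 32851 promoters, the GAS core in 8.30% and both in 0.454%. Irgm2, Igtp, Tgtp1 and Tgtp2 held both cores, in the same order and 2 bases apart. Irgm1 held 2 overlapping ISRE cores and no GAS core, and these letters were not in the window of Ifi47. The joined form seen in those 4 members, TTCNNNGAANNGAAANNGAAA, was then searched in all promoters, a search made after their sequences had been read. It occurred in 5 of the 32851 promoters, which belonged to the 4 members and to Gm12185, another IRG gene. The stretches that carry these cores are printed here, 5′ to 3′ on the strand of the gene, to show how alike the members are near their starts, and capitals mark the cores. A match of letters is a description and not a measured binding site.
Irgm1, chr11:48871421-48871465, minus strand: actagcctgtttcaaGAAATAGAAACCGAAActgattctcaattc
Irgm2, chr11:58214887-58214937, plus strand: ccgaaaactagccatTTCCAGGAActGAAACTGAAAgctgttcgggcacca
Igtp, chr11:58199496-58199546, plus strand: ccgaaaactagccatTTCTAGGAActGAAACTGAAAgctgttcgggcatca
Tgtp1, chr11:48992299-48992349, minus strand: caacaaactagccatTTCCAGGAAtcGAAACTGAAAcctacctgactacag
Tgtp2, chr11:49064258-49064308, minus strand: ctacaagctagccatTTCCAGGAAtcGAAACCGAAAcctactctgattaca

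Library totals ran from 23129212 to 35819339 counts with a median of 25733946, and no pair of libraries agreed within sampling noise. Hepatocyte markers summed to at least 48790 CPM (read counts scaled to library size with edgeR's TMM factors) in every liver. In bulk RNA, fewer cells of a type and less RNA per cell cannot be told apart. Casp8 stood at 27.7 to 33.9 CPM in the 5 Casp8-intact livers and 7.82 to 21.9 CPM in the 6 double-knockout livers. Mlkl stood at 3.68 to 4.46 CPM in the 5 Casp8-intact livers, 13.3 to 24.6 CPM in Casp8-/- Tnfr1-/- livers and 0.730 to 1.22 CPM in Casp8-/- Mlkl-/- livers. Tnfrsf1a, which encodes TNFR1, was at 49.8 and 50.5 CPM in the livers labelled Tnfr1-/- against 47.1 to 53.4 CPM in WT livers. In Casp8-/- Tnfr1-/- replicates 1 and 2, Tnfrsf1a was at 76.9 and 76.0 CPM. Its counts are summed over all exons and so do not check which part an allele lacks. Casp8-/- Mlkl-/- replicate 1 and Casp8-/- Tnfr1-/- replicate 3 stood apart, with TMM factors of 0.812 and 0.758 against 1.01 to 1.09 in the other livers. The first had a hepatocyte marker sum of 198800 CPM against 48790 to 92810 CPM in the other 10 livers, and a macrophage marker sum of 1443 CPM against 260 to 643 CPM. The second had 1426 CPM of striated muscle markers against at most 31.7 CPM elsewhere, 425 CPM of Tnfrsf1a, and Xist at 3409 CPM against at most 0.570 CPM.

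IRG transcripts were low in Casp8-intact livers, higher in Casp8-/- Mlkl-/- livers and highest in Casp8-/- Tnfr1-/- livers. The 7 members summed to 70.8 to 81.2 CPM in WT and Tnfr1-/- livers. They summed to 362, 120.4 and 131 CPM in Casp8-/- Mlkl-/- replicates 1 to 3, and to 722, 537 and 669 CPM in Casp8-/- Tnfr1-/- livers. For 6 of the 7 members every Casp8-/- Tnfr1-/- liver exceeded all 8 other livers, where 7.43% of all tested genes did so. Iigp1 was the exception, and the liver that overlapped was Casp8-/- Mlkl-/- replicate 1. For all 7 members every Casp8-/- Mlkl-/- liver exceeded all 5 Casp8-intact livers, where 5.61% of tested genes did so.

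**Figure D1:**
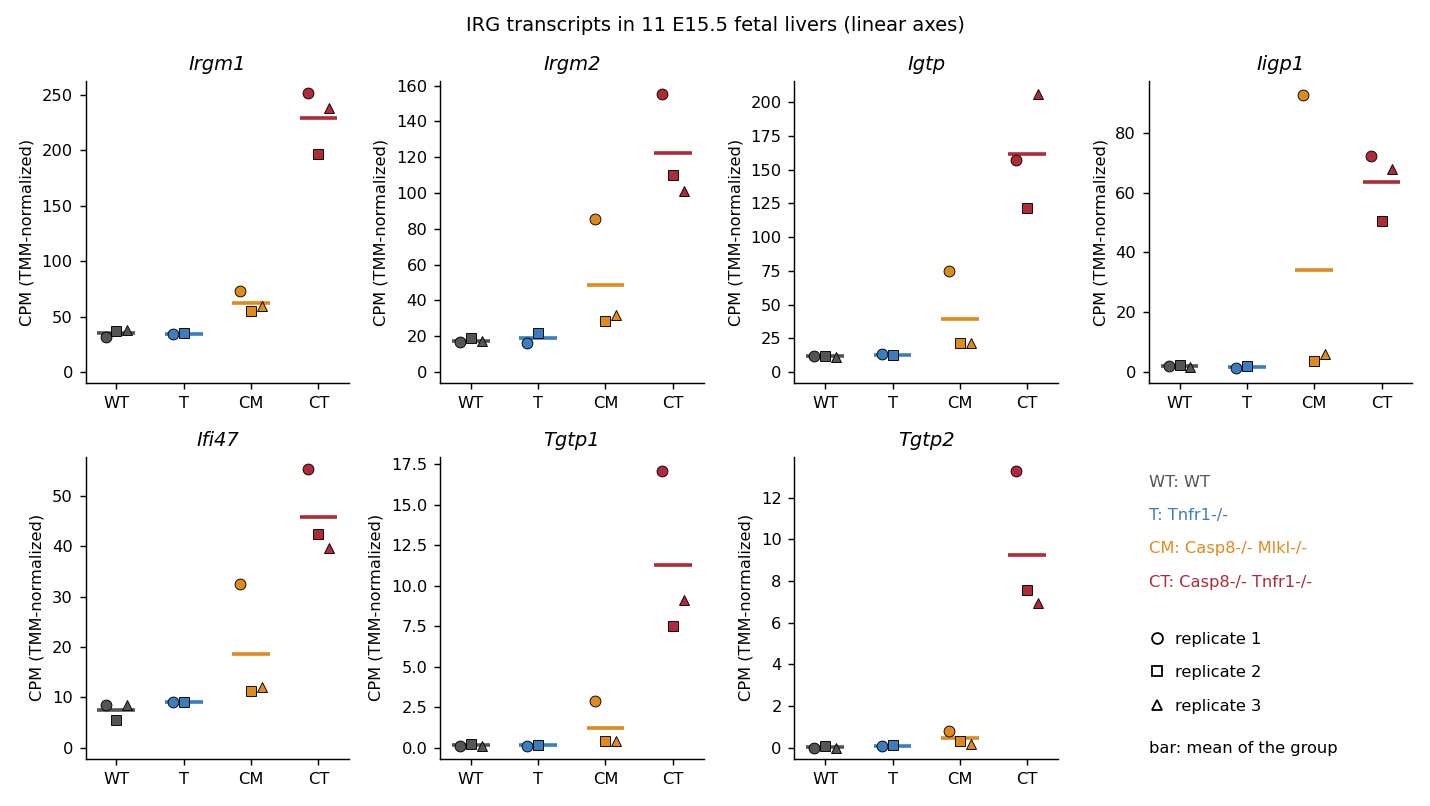
TMM-normalized CPM of each IRG gene in each liver on linear axes, with 1 panel per gene, points for single livers (symbol shape is the replicate number) and bars for group means. Casp8-/- Tnfr1-/- livers lie above all others for every gene except Iigp1, where Casp8-/- Mlkl-/- replicate 1 is at 92.7 CPM.

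Among the regulators, Irgm1 separated the genotypes with the least scatter. This GTPase is required for resistance to several intracellular pathogens and for the survival of blood stem cells under interferon. It lies on chromosome 11 (GRCm38, 48861968 to 48871683, minus strand). Irgm1 was at 31.6, 37.3 and 37.8 CPM in WT livers and 34.2 and 34.8 CPM in Tnfr1-/- livers. It was at 73.0, 55.0 and 59.2 CPM in Casp8-/- Mlkl-/- livers and 251, 196 and 238 CPM in Casp8-/- Tnfr1-/- livers. Casp8-intact, Casp8-/- Mlkl-/- and Casp8-/- Tnfr1-/- livers did not overlap. Its level in Casp8-/- Tnfr1-/- livers was 3.66-fold that in Casp8-/- Mlkl-/- livers (log2 fold change 1.87, SE 0.157, adjusted p = 0.000526, edgeR quasi-likelihood test with Benjamini-Hochberg adjustment over all tested genes). Against WT it was 6.42-fold higher (log2 2.68, SE 0.162, edgeR adjusted p = 5.36e-05).

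Irgm2 (chromosome 11, 58199618 to 58222782, plus strand) and Igtp (58199556 to 58207591, plus strand) are neighbouring regulators whose annotated spans overlap on the same strand. Their exons share 162 bases, so some reads could not be given to only 1 of them. Irgm2 was at 16.9, 18.8 and 17.1 CPM in WT livers and 16.03 and 22.1 CPM in Tnfr1-/- livers. It was at 85.6, 28.3 and 31.8 CPM in Casp8-/- Mlkl-/- livers and 156, 110.2 and 101 CPM in Casp8-/- Tnfr1-/- livers. The groups of double knockouts did not overlap, but replicate 1 of Casp8-/- Mlkl-/- was far above its replicates. Igtp was at 11.6, 12.3 and 11.2 CPM in WT livers and 13.2 and 12.9 CPM in Tnfr1-/- livers. It was at 74.6, 21.2 and 21.6 CPM in Casp8-/- Mlkl-/- livers and 157, 122 and 206 CPM in Casp8-/- Tnfr1-/- livers. The same liver was again the high one of its group. The differences between the double knockouts missed the threshold for Irgm2 (log2 1.33, SE 0.385, edgeR adjusted p = 0.139) and Igtp (log2 2.05, SE 0.448, edgeR adjusted p = 0.0573). Both rose against WT, Irgm2 by 2.79 on the log2 scale (SE 0.406, edgeR adjusted p = 0.00447) and Igtp by 3.79 (SE 0.483, edgeR adjusted p = 0.00218).

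Among the effectors, Iigp1 gave the widest spread. Its product oligomerizes on the vacuole of Toxoplasma, and the gene lies on chromosome 18 (60376027 to 60392634, plus strand). Iigp1 was at 2.07, 2.35 and 1.74 CPM in WT livers and 1.34 and 2.13 CPM in Tnfr1-/- livers. Casp8-/- Tnfr1-/- livers held 72.1, 50.6 and 68.0 CPM. Casp8-/- Mlkl-/- replicate 1 held 92.7 CPM, more than any other liver, while replicates 2 and 3 held 3.72 and 6.0002 CPM. The groups of double knockouts therefore overlapped, and their difference was not called (log2 0.90, SE 0.931, edgeR adjusted p = 0.652). Without that liver Iigp1 was called, at a log2 fold change of 3.71 (edgeR adjusted p = 0.000862). Against WT Iigp1 was called higher in Casp8-/- Tnfr1-/- livers (log2 4.95, SE 1.11, edgeR adjusted p = 0.0314). That call was lost when any single WT or Tnfr1-/- liver was left out (edgeR adjusted p from 0.058 to 0.147), and the log2 fold change then stayed between 4.85 and 5.06.

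Ifi47 (chromosome 11, 49076587 to 49096974, plus strand) was at 8.45, 5.53 and 8.56 CPM in WT livers and at 9.05 and 9.04 CPM in Tnfr1-/- livers. It was at 32.6, 11.3 and 12.0003 CPM in Casp8-/- Mlkl-/- livers and 55.3, 42.5 and 39.7 CPM in Casp8-/- Tnfr1-/- livers. Replicate 1 of Casp8-/- Mlkl-/- was once more the high liver and did not reach the other double knockout. Ifi47 was 6.09-fold higher in Casp8-/- Tnfr1-/- livers than in WT (log2 2.61, SE 0.402, edgeR adjusted p = 0.00605), and its difference from Casp8-/- Mlkl-/- missed the threshold (log2 1.30, SE 0.384, edgeR adjusted p = 0.149).

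Tgtp1 (chromosome 11, 48985327 to 48994172, minus strand) and Tgtp2 (49057194 to 49064206, minus strand) had few counts in Casp8-intact livers. Their products are close relatives that share the name Irgb6. Tgtp1 had 3, 5 and 3 counts in WT livers, 5 and 5 in Tnfr1-/- livers, 71, 15 and 11 in Casp8-/- Mlkl-/- livers and 561, 219 and 160 in Casp8-/- Tnfr1-/- livers. Tgtp2 had 0, 2 and 0 counts in WT livers, 3 and 3 in Tnfr1-/- livers, 20, 12 and 5 in Casp8-/- Mlkl-/- livers and 436, 220 and 122 in Casp8-/- Tnfr1-/- livers. These were the largest fold changes of the family in Casp8-/- Tnfr1-/- livers against WT. Over pooled counts the Casp8-/- Tnfr1-/- level was 81.0 times that of WT for Tgtp1 (exact 95% interval 45.1 to 163, from 940 and 11 counts) and 369 times for Tgtp2 (102 to 3050.2, from 778 and 2 counts). These intervals cover counting error only and not the spread between livers. Against Casp8-/- Mlkl-/- livers, Tgtp2 was called higher (log2 4.37, SE 0.628, edgeR adjusted p = 0.00868) and Tgtp1 missed the threshold (log2 3.19, SE 0.708, edgeR adjusted p = 0.0596). A different result for the pair says little about a difference between them, because 79.4% of the 50-base stretches of Tgtp1 transcripts occur in Tgtp2, and 85.8% of those of Tgtp2 occur in Tgtp1. The reads were 50 bases long, so most positions could not be assigned to 1 of the genes. If such reads were left out of the counts, few counts need not mean low expression, and a sum would not restore them. With the counts of Tgtp1 and Tgtp2 summed, the pair was called higher against Casp8-/- Mlkl-/- (log2 3.61, SE 0.66, edgeR adjusted p = 0.0282) and against WT (log2 6.85, SE 0.82, edgeR adjusted p = 0.00151). The other 5 members shared 0.379% (Irgm1) to 11.8% (Igtp) of such stretches with any other gene.

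Comparing the double knockouts over the family, 2 of 7 members (Irgm1 and Tgtp2) were called higher in Casp8-/- Tnfr1-/- livers, where 1.54% of tested genes were called higher. For 6 of 7 members the groups did not overlap, where every Casp8-/- Tnfr1-/- liver exceeded every Casp8-/- Mlkl-/- liver for 9.61% of tested genes. All 7 fold changes were positive, with a median of 1.87 on the log2 scale against -0.03 over all tested genes. The count moved with the livers used. Without Casp8-/- Mlkl-/- replicate 1, 7 of 7 members were called, where 3.3% of tested genes were called in either direction. Without replicate 2 or replicate 3 of that genotype only Irgm1 was called, where 0.497% and 0.483% of tested genes were, against 1.65% with all livers. With Casp8-/- Tnfr1-/- replicate 3 left out as well as Casp8-/- Mlkl-/- replicate 1, a setting chosen after seeing the data, all 7 were called, where the share of tested genes called rose to 18.1%.

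Against WT, 7 of 7 members were called higher in Casp8-/- Tnfr1-/- livers, where 5.1% of tested genes were. The median of the members was 3.79 on the log2 scale, with or without Tgtp2 set at the bound that a floor of 3 counts per WT liver gives, and that of all tested genes was -0.0015. Against Tnfr1-/-, which has the same Tnfr1 label, 6 of 7 members were called higher, where 2.05% of tested genes were, and the members' median was 3.63. Iigp1 was the member not called (log2 5.20, SE 1.35, edgeR adjusted p = 0.0903). The 2 Tnfr1-/- livers decided this count, since leaving out either one left 1 member called (Irgm1), where 0.163% and 0.21% of tested genes were called, against 2.17% with all livers. The fold changes stayed close to those with both livers, at 3.60 to 3.63 for Igtp and 6.28 to 6.74 for Tgtp2 on the log2 scale. These comparisons share the Casp8-/- Tnfr1-/- livers.

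Casp8-/- Mlkl-/- livers stood above WT for every member, but 0 of 7 passed the edgeR test, where 0.0058% of tested genes were called higher (1 gene). The log2 fold changes ran from 0.81 for Irgm1 (SE 0.154, edgeR adjusted p = 0.236) to 4.05 for Iigp1 (SE 1.07, edgeR adjusted p = 0.697), with a median of 1.74. All 7 members had an unadjusted p under 0.05, as did 971 of the 17243 tested genes. The DESeq2 Wald test called 3 members (Irgm1, Igtp and Tgtp1), where it called 0.522% of tested genes, and it gave no adjusted p for Iigp1. By limma-voom 0 members were called. With replicate 1 of this genotype and Casp8-/- Tnfr1-/- replicate 3 both left out, 5 members were called at smaller fold changes, among them Irgm1 at 0.68 and Iigp1 at 1.23 on the log2 scale, and the share of tested genes called rose to 6.4%. Tgtp1 and Tgtp2 were the members then not called.

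Between Tnfr1-/- and WT livers no member passed the test. Of the 7 members 0 were called, where 0% of tested genes were called higher by edgeR, and 0 members had an unadjusted p under 0.05 (186 of all tested genes did). DESeq2 and limma-voom also called 0 members. Leaving out Tgtp2, which had at most 3 counts in each of these 5 livers, the log2 fold changes lay between -0.25 and 0.27. Both Tnfr1-/- livers exceeded all WT livers for 2 of 7 members, where 17.3% of tested genes did so.

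**Figure D2:**
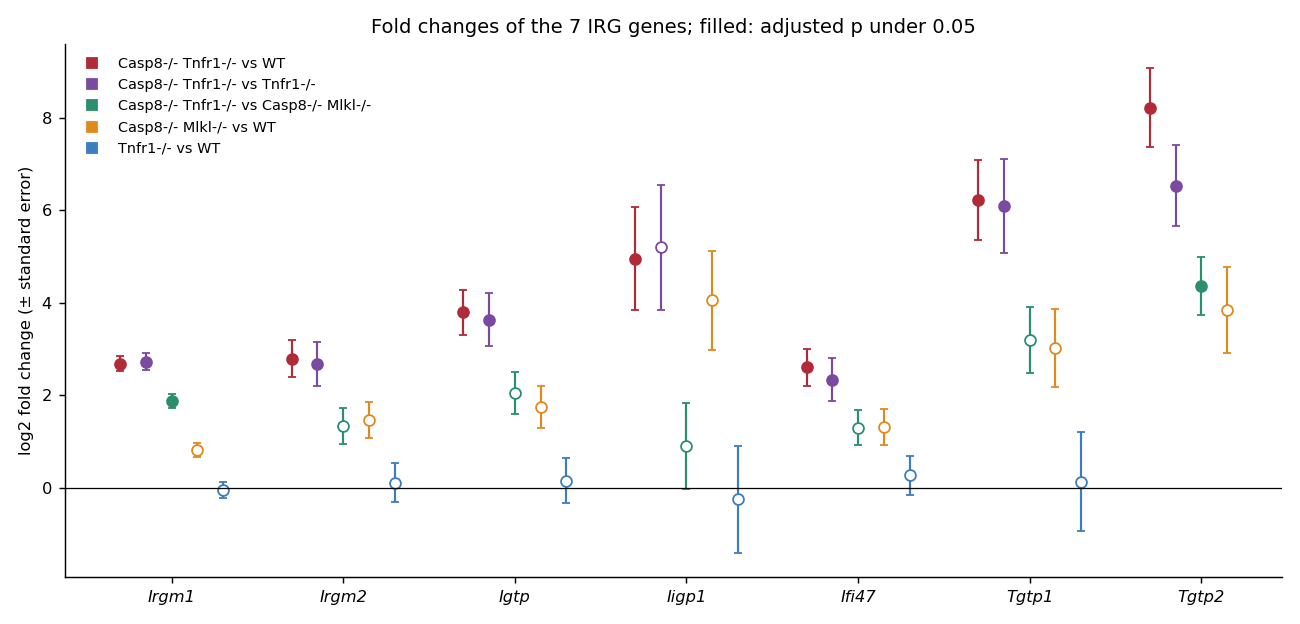
Log2 fold change with its standard error for each IRG gene in the 5 comparisons, from edgeR over all 11 livers, with filled points for an adjusted p under 0.05. Tgtp2 in Tnfr1-/- against WT is not drawn because no liver there had over 3 counts. All 7 points of Casp8-/- Tnfr1-/- against WT are filled, and 2 of 7 against Casp8-/- Mlkl-/-.

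Casp8-/- Mlkl-/- replicate 1 did not raise the members evenly. Its Irgm1 level was 1.28 times the mean of replicates 2 and 3, against 2.79 for Ifi47, 2.84 for Irgm2, 3.48 for Igtp, 3.004 for Tgtp2, 6.72 for Tgtp1 and 19.1 for Iigp1. Expressed against the mean of the Casp8-/- Tnfr1-/- livers, it reached 8.74% for Tgtp2, 25.6% for Tgtp1, 31.9% for Irgm1, 46.1% for Igtp, 70.0% for Irgm2, 71.1% for Ifi47 and 146% for Iigp1, where replicates 2 and 3 stood at 5.85% and 9.44% for Iigp1. Irgm1 made up 42.8% to 49.4% of member counts in Casp8-intact livers and 34.8% to 36.6% in Casp8-/- Tnfr1-/- livers, but 20.2% in this liver. Iigp1 made up 25.6% of its member counts, against 9.44% to 10.2% in Casp8-/- Tnfr1-/- livers. The 2 other tested IRG genes on chromosome 18 showed the same liver high, and Gm4841, also there but with too few counts to test, had 1, 2 and 1 counts in Casp8-/- Mlkl-/- livers. Gm4951 was at 28.01 CPM there against 2.03 and 2.87 CPM in its replicates, and F830016B08Rik at 5.27 against 0.378 and 0.611 CPM. On chromosome 11, Gm12250 was at 1.62 CPM against 1.83 and 1.57 CPM, and Gm12185 at 0.324 against 0.232 and 0.420 CPM, so this liver was not the high one for them. It was the high one for Gm5431, at 1.38 against 0.494 and 0.955 CPM, and stood at 0.677 and 1.09 times the mean of its replicates for 9930111J21Rik1 and 9930111J21Rik2. The hepatocyte marker sum of the same liver was 3.74 times the mean of its replicates, all 6 hepatocyte markers being counted in every liver. Its sum over 8 markers of T and NK cells was 25.3 CPM against 3.76 to 13.7 CPM elsewhere, with Cd3e at 0 to 2 counts in all livers. The part of these markers in the IRG levels was not tested.

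**Figure D3:**
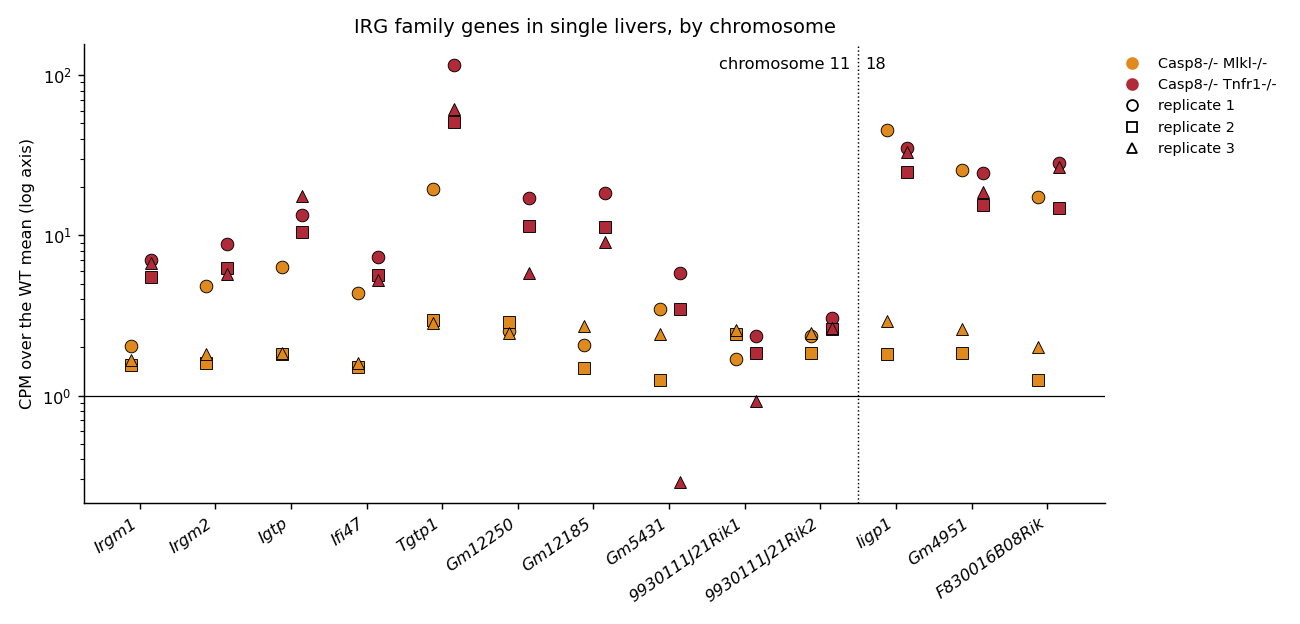
CPM of 13 IRG family genes over the WT mean in each Casp8-/- Mlkl-/- and Casp8-/- Tnfr1-/- liver, on a log axis and grouped by chromosome, with the line at 1 marking the WT mean. Casp8-/- Mlkl-/- replicate 1 (circle) stands above every Casp8-/- Tnfr1-/- liver for Iigp1 and Gm4951, and above its replicates by 10.7 to 19.1 times for the 3 tested genes on chromosome 18.

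Per kilobase of the gene width given in the files, the order of WT levels was Irgm1 (15.4 ± 1.48 CPM per kb, SD, n = 3), Igtp (5.78 ± 0.279), Irgm2 (4.78 ± 0.281), Ifi47 (3.999 ± 0.914), Iigp1 (0.658 ± 0.0982) and Tgtp1 (0.0523 ± 0.0190). Tgtp2, with 2 counts in all, came last. Irgm2 and Ifi47 did not differ by more than the SD of Ifi47. In Casp8-/- Tnfr1-/- livers the order was the same, from Irgm1 (99.2 ± 12.5) and Igtp (80.0 ± 20.9) through Irgm2 (33.1 ± 7.92), Ifi47 (24.4 ± 4.42) and Iigp1 (20.4 ± 3.65) to Tgtp1 (3.99 ± 1.82) and Tgtp2 (3.30 ± 1.25). There the ranges of the neighbours Irgm1 and Igtp, Irgm2 and Ifi47, Ifi47 and Iigp1, and Tgtp1 and Tgtp2 overlapped. Tnfr1-/- livers kept the WT order, with Irgm1 at 14.97 ± 0.157 and Igtp at 6.44 ± 0.0977 CPM per kb (SD, n = 2). In Casp8-/- Mlkl-/- livers Irgm1 (27.1 ± 4.08) and Igtp (19.4 ± 15.2) again came first, and Iigp1 (10.9 ± 16.3) stood beside Ifi47 (9.92 ± 6.43), an order that replicate 1 set. The widths differ from the exon totals of the GENCODE M21 annotation for 5 of the 7 members, so this order depends on the gene models counted.

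**Figure D4:**
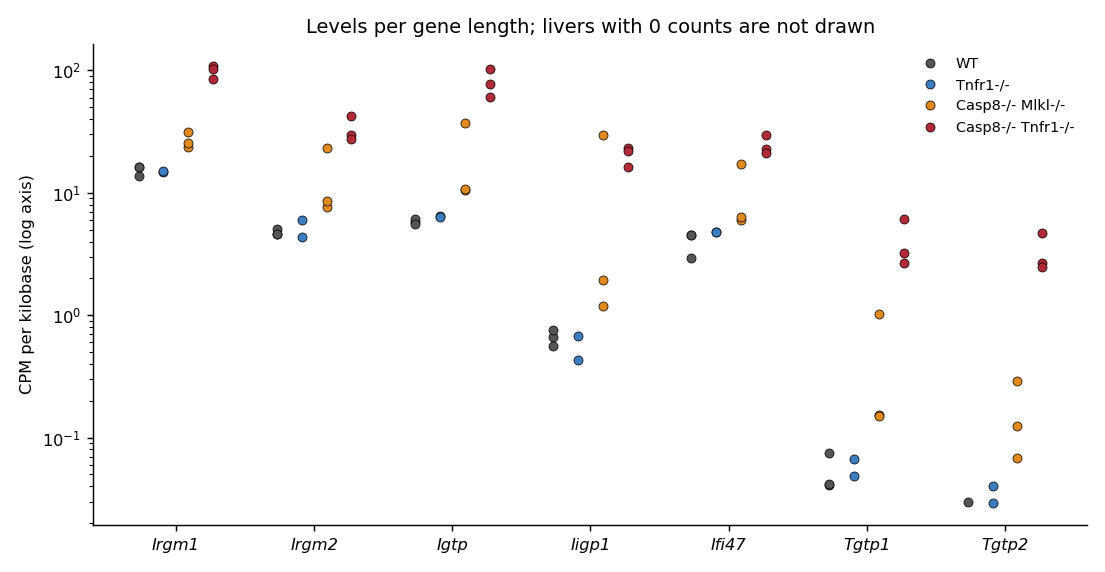
CPM per kilobase for each IRG gene on a log axis, with 1 point per liver and colours for genotype, and livers with 0 counts left out. The order of the genes is the same in WT and Casp8-/- Tnfr1-/- livers, and the gap between those genotypes is widest for Tgtp1 and Tgtp2. The low places of Tgtp1 and Tgtp2 may depend on how reads from their shared sequence were counted.

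Of 10 other IRG genes that were matched, 8 were tested. Between the double knockouts 1 was called higher, where 1.54% of tested genes were, namely Gm12185 (log2 2.63, SE 0.542, edgeR adjusted p = 0.0444). Its annotated exons share 223 bases with Tgtp1, so its reads and those of Tgtp1 may be mixed. Gm12250 (Irgb10), an effector that helps to open bacteria in the cytosol, was at log2 2.14 (SE 0.471, edgeR adjusted p = 0.0586). The other 6 tested genes were not called, at log2 fold changes of 1.77 for F830016B08Rik, 0.98 for Gm4951, 0.46 for Gm5431, 0.33 for 9930111J21Rik2, -0.37 for 9930111J21Rik1 and -0.46 for Irgq. Against WT, 5 of the 8 were called higher in Casp8-/- Tnfr1-/- livers, where 5.1% of tested genes were. Their log2 fold changes were 4.51 for F830016B08Rik, 4.29 for Gm4951, 3.65 for Gm12185, 3.51 for Gm12250 and 1.46 for 9930111J21Rik2. The list's median between the double knockouts was 0.72.

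The guanylate-binding proteins are larger interferon-induced GTPases that act beside the IRGs at vacuoles. Of 11 tested, 7 were called higher in Casp8-/- Tnfr1-/- than in Casp8-/- Mlkl-/- livers (list median 1.92), where 1.54% of tested genes were. The called genes were led by Gbp11 (log2 2.78, SE 0.313, edgeR adjusted p = 0.00247), Gbp3 (2.54) and Gbp4 (2.21). Gbp2b (log2 -2.27) and Gbp8 (-0.24) went the other way and were not called. In Casp8-/- Mlkl-/- replicate 1 Gbp3 was at 6.61 CPM against 4.27 and 4.24 CPM in its replicates, and Gbp4 at 3.77 against 3.40 and 3.90 CPM. It was further from them for some others, among them Gbp7, at 34.1 against 16.6 and 14.9 CPM. For Gbp6 it was at 3.08 CPM with a group minimum of 0.785 CPM, and for Gbp2 at 16.3 CPM with a group minimum of 8.68 CPM. Against WT 8 of 11 were called higher, where 5.1% of tested genes were.

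Interferon pathway genes moved as follows. Ifng had 0 to 3 counts and Ifnb1 0 to 1 counts in every liver, so neither was tested, and a difference in either was not detectable at this depth. Of 10 genes tested on the interferon-gamma axis, 2 were called higher in Casp8-/- Tnfr1-/- than in Casp8-/- Mlkl-/- livers, where 1.54% of tested genes were. One of the 2 was Nlrc5, the transactivator of MHC class I genes (log2 2.77, SE 0.445, edgeR adjusted p = 0.016). Irf1, a transcription factor that activates interferon-stimulated genes, missed the threshold (log2 1.31, SE 0.319, edgeR adjusted p = 0.0826). It was at 45.4, 19.3 and 19.1 CPM in Casp8-/- Mlkl-/- livers, with replicate 1 high as for the IRGs, and 65.7, 57.3 and 85.1 CPM in Casp8-/- Tnfr1-/- livers. On the type I axis 4 of 8 tested genes were called higher, against the same 1.54% of all tested genes. They were Usp18 (log2 3.24), a feedback inhibitor of the type I receptor, Irf7 (2.70), Stat2 (1.59) and Irf9 (1.22). The median was 0.40 on the interferon-gamma axis and 0.84 on the type I axis. Against WT, 4 of 10 interferon-gamma axis genes and 4 of 8 type I axis genes were called higher in Casp8-/- Tnfr1-/- livers, where 5.1% of tested genes were. Between Casp8-/- Mlkl-/- and WT livers edgeR called 0 genes of these lists and of the guanylate-binding proteins. There 8 of 11 guanylate-binding proteins, 3 of 10 interferon-gamma axis genes and 3 of 8 type I axis genes had an unadjusted p under 0.05. So did 971 of the 17243 tested genes. The genes that the DESeq2 Wald test called higher there included Gbp7, Gbp9, Irf7 and Irf9, and limma-voom called 0.

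The ATG8 conjugation genes, whose products guide IRGs to vacuoles, were not called in either direction (0 of 11 in each of the comparisons with Casp8-/- Tnfr1-/- livers, and 0 of 11 with an unadjusted p under 0.05). The DESeq2 Wald test and limma-voom also called 0 of 11 in these comparisons. Of 27 other genes annotated within 100 kb of a member, 18 were tested, with a median of 0.05 between the double knockouts. There edgeR called 1 higher, Olfr56 (log2 3.26, edgeR adjusted p = 0.043), where it called 1.54% of tested genes higher. The same gene was called by limma-voom. The DESeq2 Wald test called 3, Olfr56, 4930438A08Rik and Psme2b. Against WT, edgeR called 2 of the 18 higher in Casp8-/- Tnfr1-/- livers, where it called 5.1% of tested genes higher. Mean levels of 4930438A08Rik were 3.75 CPM in WT, 4.99 CPM in Casp8-/- Mlkl-/- and 12.8 CPM in Casp8-/- Tnfr1-/- livers. Olfr56 spans Ifi47, Tgtp1 and Tgtp2 and shares 111 exon bases with Ifi47, so its 219 counts over all livers may belong to that member.

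The members rose and fell together across livers, with a Pearson r of 0.893 to 0.991 over the 21 pairs and 11 livers on log2 CPM. These livers share genotype and depth, so r describes the genotype pattern as much as the genes. The 5 other genes most like the members' mean pattern were Ddx58 (RIG-I, a sensor of viral RNA, r = 0.995), Arl5c (0.99), Irf7 (0.989), Helz2 (0.988) and Gbp7 (0.987). Ddx58 was at 45.5, 24.7 and 21.4 CPM in Casp8-/- Mlkl-/- livers and 83.7, 68.4 and 75.9 CPM in Casp8-/- Tnfr1-/- livers, against 13.4 to 14.9 CPM in WT livers. These genes were chosen for this pattern, so their levels are a description.

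Summed markers of immune cells are given for the same livers. Neutrophil markers, all 8 counted in every liver, summed to 5104, 6261 and 14790 CPM in Casp8-/- Tnfr1-/- replicates 1 to 3. They summed to 1217 to 3351 CPM in Casp8-/- Mlkl-/- livers and 1061 to 1530 CPM in Casp8-intact livers. Of the 8, 4 were called higher in Casp8-/- Tnfr1-/- livers than in WT, where 5.1% of tested genes were. Between the double knockouts edgeR called 0, and 6 had an unadjusted p under 0.05, as did 2644 of all tested genes. Mpo and Elane were at log2 0.05 and 0.22 there. Macrophage markers summed to 260 to 427 CPM in Casp8-/- Tnfr1-/- livers and 590 to 1443 CPM in Casp8-/- Mlkl-/- livers, against 449 to 584 CPM in Casp8-intact livers. Between the double knockouts 3 of these 10 markers, Adgre1, Marco and Timd4, were called lower in Casp8-/- Tnfr1-/- livers, as were 20 of the 17243 tested genes. Against WT 2, Clec4f and Marco, were called lower (121 of all tested genes were) and 1, Cd68, higher (log2 0.90, edgeR adjusted p = 0.0293). C1qb averaged 85.3 CPM there against 69.1 CPM in WT and was not called. All 10 were counted in every liver except Vsig4, which had 0 counts in Casp8-/- Tnfr1-/- replicates 1 and 3. The sum does not follow every marker. By protein labelling of sections, the study reports myeloid aggregates that included macrophages in E15.5 Casp8-/- Tnfr1-/- livers. The part of these cell types in the IRG levels was not tested.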

How the data were processed

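Each sample was RNA of fetal liver. The deposited tables give, per the file headers, a read count, an RPKM and a width in bases for each gene. Per the labels the reads were single-end, 50 bases long, and per the submitters' processing notes they were aligned with GSNAP to GRCm38 (mm10). The study's methods name limma on uniquely mapped reads. Labels and methods name different library kits and sequencers, and the counter, its use of strand and the annotation release are not given in the sources used here. The deposited RPKM values were made by the authors and were read only to learn the unit of each column. Counts were tested as deposited with edgeR 4.0.16 (R 4.3.3; TMM, filterByExpr with a minimum count of 10, quasi-likelihood test, genotype as the only factor, all 11 livers in 1 fit, two-sided), with Benjamini-Hochberg adjustment over 17243 genes and a threshold of 0.05. The procedure was tested on simulated data. Alternatives used DESeq2 1.42.0, limma 3.58.1 (voom), other scalings, no filter, fewer livers, a replicate block, and Tgtp1 with Tgtp2 summed. Named genes were every member and tested IRG relative, and up to 3 called genes of largest fold change from each other list, plus fixed interferon genes, targeted genes and the 5 genes of most similar pattern. The members and lists were chosen with earlier results of these data known. Positions are from GENCODE M21 (GRCm38), and promoters from RefSeq (GRCm38.p6). The values of 1 gene of the interferon lists are not reported here.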

Additional observations from a re-analysis of the deposited data

How the results depend on the processing

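Over 20 alternatives the count of members called stayed at 6 or 7 of 7 for Casp8-/- Tnfr1-/- against WT and at 0 for Tnfr1-/- against WT. The DESeq2 Wald test gave no adjusted p for Iigp1 in the comparisons with Casp8-/- Tnfr1-/- livers, so its counts there are out of 6. For Casp8-/- Tnfr1-/- against Casp8-/- Mlkl-/-, where 2 were called, no filter gave 4, limma-voom 4, the DESeq2 Wald test 6 and a fit of only those genotypes 0. Leaving out 1 liver gave 1 to 7 in that comparison, where 0.483% to 3.3% of tested genes were called in either direction. With both livers of low TMM factor left out (chosen after seeing the data) 7 were called there and 5, not 0, for Casp8-/- Mlkl-/- against WT, where the DESeq2 Wald test called 3 and leaving out 1 liver 0. For Casp8-/- Tnfr1-/- against Tnfr1-/-, where 6 were called, leaving out 1 liver gave 1 to 7; a genotype left with 1 liver was assumed to vary like the others. The causes were not tested. The percent of all genes called ran from 0.0673 to 18.1 around 1.65 between the double knockouts, from 1.63 to 31.3 around 5.8 against WT, from 0.163 to 23.2 around 2.17 against Tnfr1-/-, from 0 to 6.4 around 0.0058 for Casp8-/- Mlkl-/- against WT, and from 0 to 1.6 around 0 for Tnfr1-/- against WT, with the highest values of the first 4 in the setting without both livers. A count of members without the share of its own setting shows how the call depends on that setting. It does not compare the members with other genes. Other scalings moved no median of all genes by over 0.1.

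Deviations of same-numbered livers from their group means correlated between -0.297 and 0.275 over 15 pairs, 4 of them above 0.1. Livers of different number were not compared, so these values cannot show that pairing is absent. With the replicate block, 2, 6, 6, 0 and 0 members were called in the 5 comparisons, in the order double knockouts, Casp8-/- Tnfr1-/- against WT and against Tnfr1-/-, Casp8-/- Mlkl-/- against WT, and Tnfr1-/- against WT. These counts are not set beside the share of all tested genes called with the block. They show only how the members' own calls moved. The call lost was Iigp1 against WT (edgeR adjusted p = 0.0534). The fold changes that changed sign were uncalled ones of Tnfr1-/- against WT. With the block, Irgm2 was at -0.0004 and Tgtp1 at -0.15 on the log2 scale. Leaving out 1 liver gave -0.12 to 0.0062 for Irgm1, -0.14 to 0.32 for Irgm2, -0.61 to 0.0512 for Iigp1 and -0.10 to 0.45 for Tgtp1, where Tgtp1 was also at -0.01.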
